A study of Mus musculus with 15 samples.

Results

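The comparison described here set the tibialis anterior muscle of all tumour-bearing mice against that of all tumour-free mice, with the drug arm as a covariate. It took in all 15 libraries of the series, 8 tumour-bearing and 7 tumour-free. A gene was tested if 3 or more of the libraries held 1 TPM or more of it, which left 11923 genes of 21659 with any value above 0 and 47643 gene symbols in the table. TPM is a transcript abundance corrected for transcript length and scaled to a fixed sum per library, so sequencing depth is unknown and no counting interval can be given.

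The tumour-bearing libraries were melanoma 1 to 4, from mice with the tumour and a mock drug treatment, and melanoma plus lisinopril 1 to 4, from mice with the tumour and the drug. The tumour-free libraries were control 1 to 4, from mock-injected mice, and lisinopril 1 to 3, from mock-injected mice given the drug. Lisinopril inhibits angiotensin-converting enzyme and is used against high blood pressure. All mice were female, and the labels give the strain as C57BL6/J and the age as 7 weeks. According to the design text the muscles were taken 49 days after implantation of a xenograft that induces cachexia, which is wasting of muscle and fat. The sources used here do not give the tumour's species or cell line, and the protocol field also mentions another tumour, for a time that is not the one of the design text. The labels call the libraries biological replicates. No genotype other than the strain is given.

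The libraries carried the transcripts of muscle. The summed level of 10 muscle fibre genes lay between 68212 and 147857 TPM. The melanocyte genes Pmel, Mlana, Tyr and Dct reached at most 0.327 TPM in any library and 0.152 TPM in the tumour-bearing ones. Of the 11 melanocyte and melanoma markers 2 passed the filter, Mitf and Gpnmb, and the summed level of the list was 5.10 to 12.3 TPM without and 7.24 to 54.1 TPM with tumour. Mitf, a melanocyte transcription factor, had a log2 fold change of 0.43 ± 0.14 (limma adjusted p = 0.0447), a call lost with median-ratio rescaling and without any one of 11 libraries (adjusted p up to 0.0931). Gpnmb, which macrophages also make, held 41.0 TPM in melanoma 2 and did not pass (1.00 ± 0.55, adjusted p = 0.189). A pair of libraries, control 2 and melanoma 2, resembled their group less than the rest did: the mean correlation with the group's other libraries was 0.937 and 0.938, and 0.965 or more in the remaining 13. Control 2 also held 23878 TPM of haemoglobin against at most 4197 TPM elsewhere, and 20.0 TPM of Cd79a, a subunit of the B cell receptor, against at most 0.560 TPM elsewhere. Results that rest on either library are given with and without both.

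Cachexia is a syndrome of advanced cancer in which muscle mass is lost although food is available. In rodents it goes with circulating interleukin-6 type cytokines, which act through STAT3, with glucocorticoids, and with FoxO transcription factors, which switch on ubiquitin ligases and autophagy and so raise protein breakdown. Muscle is also known to switch on genes that the liver uses in the acute phase response, the change in plasma proteins that follows injury or infection.

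With tumour, 1985 genes were higher and 496 were lower at an adjusted p under 0.05 (limma on log2(TPM + 1), two-sided, Benjamini-Hochberg over all genes tested). These are 16.6% and 4.16% of the genes tested, and the shares of single gene groups below are to be read against them. The balance of the directions depended on the scaling. Rescaling the libraries by median ratios, which sets the median change of all genes to about 0, gave 1235 genes higher (10.4%) and 1397 lower (11.7%). Over all genes the log2 fold change had a median of 0.16 with the TPM as deposited and of -0.0050 after rescaling. Of the TPM, 39.1 ± 5.95% (SD, n = 8) came from the mitochondrial genome in tumour-bearing and 44.5 ± 4.20% (SD, n = 7) in tumour-free libraries, a difference of -5.44 percentage points (exact two-sided permutation test, p = 0.0653). Such a difference shifts the TPM of every other gene. Changes of many gene groups are therefore given with their median relative to that of all genes. Without control 2 and melanoma 2, 28.4% of the genes tested were higher and 5.45% were lower. In 178 genes (1.49%) every tumour-bearing library lay above every tumour-free one, and in 100 genes (0.839%) every one lay below. Of the genes called higher, 66 reached 1 TPM in no tumour-free library and so passed the filter only through the tumour-bearing ones, as did 25 of the genes called lower through the tumour-free ones.

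The acute phase proteins, the metallothioneins and complement led the rises. Serpina3n, a secreted inhibitor of serine proteases of the acute phase, ranged from 1.10 over a median of 1.67 to 11 TPM in the tumour-free libraries and from 15.3 over 100.2 to 887 TPM in the tumour-bearing ones. Its log2 fold change was 5.05 ± 0.66 (limma, SE; adjusted p = 5.67e-04), and every tumour-bearing library lay above every tumour-free one. Lcn2, lipocalin 2, which withholds iron from bacteria, ranged from 0.352 over 1.32 to 5.95 TPM without and from 5.76 over 74.7 to 337 TPM with tumour (4.54 ± 0.71, adjusted p = 0.00142). Here the groups touched in 1 library, since 7 of 8 tumour-bearing libraries lay above all tumour-free ones. Other genes with large rises were Fkbp5 (log2 fold change 3.04 ± 0.46), a co-chaperone of the glucocorticoid receptor, Apod (2.52 ± 0.35), a lipid carrier, Cxcl13 (2.53 ± 0.49), a chemokine that attracts B cells, and Prg4 (2.38 ± 0.30), which encodes the joint lubricant lubricin.

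Several genes with smaller folds were among the rises with the smallest adjusted p. Sned1, which encodes a secreted protein of the matrix, lay between 1.54 and 2.73 TPM without tumour, with a median of 2.07, and between 6.21 and 17.6 TPM with tumour, with a median of 13 (log2 fold change 2.09 ± 0.17, limma adjusted p = 2.60e-05). Tmem176a, a membrane protein of immune cells, rose by 1.85 ± 0.19, Atp9a, a phospholipid flippase of endosomes, by 2.16 ± 0.23, and Lnx1, a ubiquitin ligase, by 1.35 ± 0.14. In each of these 4 genes all 8 tumour-bearing libraries lay above all 7 tumour-free ones. Ybx3, which binds DNA and RNA, rose among the abundant transcripts. It lay between 304 and 517 TPM without tumour (median 386) and between 664 and 2414 TPM with it (median 939.8; 1.52 ± 0.25, adjusted p = 0.00167), again without overlap.

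**Figure D1:**
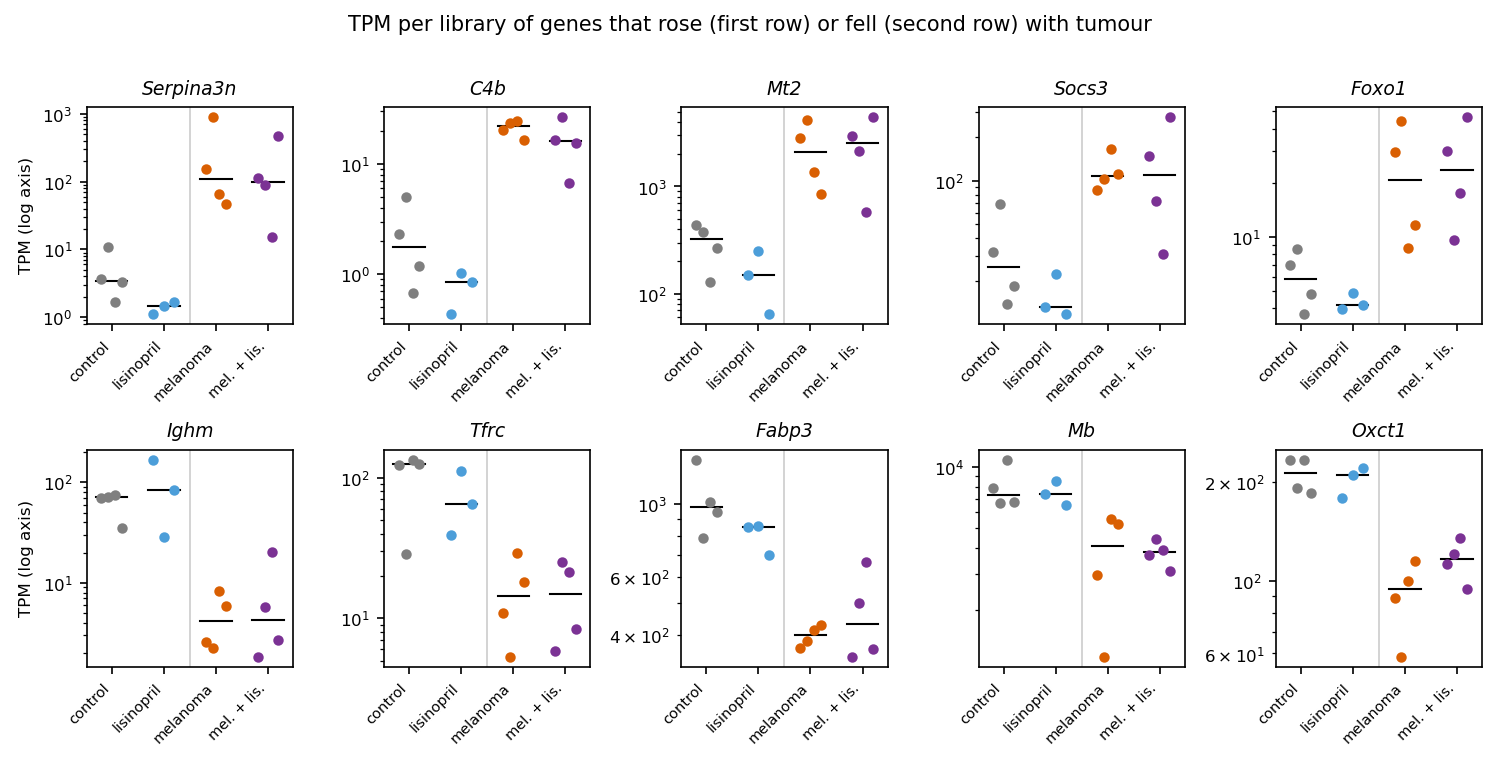
TPM on a log axis in each library, by group, for 5 genes that rose with tumour (first row) and 5 that fell (second row); each point is a library and each bar the median of a group (control, n = 4; lisinopril, n = 3; melanoma, n = 4; melanoma plus lisinopril, n = 4). The tumour-bearing libraries lie above every tumour-free one for Serpina3n, C4b, Mt2 and Foxo1 and below every one for Ighm, Fabp3, Mb and Oxct1, while Socs3 and Tfrc overlap in 1 library each.

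Some receptors, the transducer and some feedback inhibitors of the interleukin-6 pathway rose. Il6ra, the receptor's binding subunit, ranged from 0.716 over 1.29 to 9.47 TPM without and from 4.74 over 9.58 to 34.3 TPM with tumour (log2 fold change 2.28 ± 0.46, limma adjusted p = 0.00552). The highest tumour-free value was that of control 2, and 4 of 8 tumour-bearing libraries lay above it. Il6st, the shared signalling subunit gp130, rose less (0.91 ± 0.16, adjusted p = 0.00272), yet its 8 tumour-bearing libraries, from 40.1 to 85.9 TPM, all lay above the 7 tumour-free ones, from 23.7 to 39.9 TPM. Osmr, the oncostatin M receptor, rose by 1.72 ± 0.20 and Stat3, the transcription factor that these receptors activate, by 1.62 ± 0.18. Stat3 lay between 9.86 and 23.1 TPM without tumour (median 12.3) and between 30.7 and 66.7 TPM with it (median 44.7).

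Socs3 and Cish encode inhibitors that STAT factors induce and that then shut off the receptors. Socs3 ranged from 11.8 over 18.5 to 69.2 TPM without and from 31.1 over 107 to 276 TPM with tumour (2.28 ± 0.41, adjusted p = 0.00315). Cish ranged from 1.39 over 4.93 to 13.9 TPM and from 8.15 over 10.9 to 29.7 TPM (1.30 ± 0.35, adjusted p = 0.0217), with overlap in 5 of 8 tumour-bearing libraries. The call of Cish was lost without lisinopril 1 or without lisinopril 2 (adjusted p up to 0.0559). Of the 20 genes listed for this pathway all passed the filter, 6 rose and none fell. With median-ratio rescaling 6 were higher and 1 was lower. The median of the list was 0.079 above that of all genes.

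The promoter windows of Socs3 and Cish are shown because their products report STAT activity. Each runs from 250 bases before to 50 bases after the start given by RefSeq (build GRCm38.p6), 5′ to 3′ on the gene's strand, with matches to TTCNNNGAA, the palindromic core that STAT dimers bind, in capitals. The Socs3 window, chr11:117969317-117969616 on the minus strand, held 1 match, and the Cish window, chr9:107296409-107296708 on the plus strand, held 2. In GENCODE M21 Socs3 spans 117966079 to 117970047 and Cish 107296026 to 107302784. Both windows thus lie within the genes as GENCODE draws them, not upstream of them.
Socs3: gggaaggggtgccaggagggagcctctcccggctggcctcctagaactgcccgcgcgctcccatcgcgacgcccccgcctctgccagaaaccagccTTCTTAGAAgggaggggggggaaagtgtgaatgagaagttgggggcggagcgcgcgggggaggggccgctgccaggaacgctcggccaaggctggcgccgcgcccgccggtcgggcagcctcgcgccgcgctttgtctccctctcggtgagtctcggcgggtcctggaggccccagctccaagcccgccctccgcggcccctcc
Cish: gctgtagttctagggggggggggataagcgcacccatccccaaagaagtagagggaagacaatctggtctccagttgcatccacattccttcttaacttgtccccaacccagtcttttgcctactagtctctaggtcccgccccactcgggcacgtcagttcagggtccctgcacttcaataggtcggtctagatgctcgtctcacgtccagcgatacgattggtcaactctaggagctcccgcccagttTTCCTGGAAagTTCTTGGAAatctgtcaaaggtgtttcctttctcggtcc
Of 11521 promoters of 9002 tested genes with an entry in the RefSeq table, 6.89% held at least 1 match on either strand and 0.391% held 2 or more. The share with a match was 8.19% among the promoters of genes that rose and 5.84% among those of genes that fell.

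Of 25 acute phase genes, 15 passed the filter and 13 of these rose. One of the 15 reached 1 TPM in no tumour-free library. Their median was 1.72 above that of all genes, and 13 were also higher with median-ratio rescaling. Lbp, which hands bacterial lipopolysaccharide to immune cells, ranged from 1.28 over 3.08 to 6.50 TPM without and from 8.52 over 16.2 to 30.7 TPM with tumour (log2 fold change 2.13 ± 0.23, limma adjusted p = 1.39e-04), without overlap. Hp, haptoglobin, which binds free haemoglobin, rose by 2.13 ± 0.35 and Slc39a14, a zinc and iron importer of the plasma membrane, by 1.92 ± 0.42. Saa1, serum amyloid A, rose by 1.88 ± 0.50 from a very low level, with at most 1.08 TPM without tumour and a median of 3.96 TPM with it.

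Complement, a cascade of plasma proteases that marks and lyses cells, rose at its central components and at an inhibitor. C4b lay between 0.432 and 4.97 TPM without tumour (median 1.04) and between 6.79 and 26.5 TPM with it (median 18.5; log2 fold change 3.04 ± 0.27, limma adjusted p = 3.70e-05). C3, on which all routes of activation converge, lay between 5.48 and 20.0 TPM (median 10.6) and between 44.6 and 129 TPM (median 70.9; 2.87 ± 0.26, adjusted p = 3.70e-05). Neither gene's groups overlapped. The proteases C1ra (1.18 ± 0.27) and C1s1 (1.05 ± 0.25), which start the classical route, rose less. Of the lytic components, C7 rose by 1.33 ± 0.18 to a median of 2.04 TPM. The inhibitor Serping1, which blocks C1r and C1s, rose as well (1.49 ± 0.23). Of 27 listed genes 20 passed the filter, 9 rose and 1 fell, C8g (-0.50 ± 0.16, adjusted p = 0.0416), a call that was lost without any one of 10 libraries (adjusted p up to 0.0807, without control 4). The list's median was 0.69 above that of all genes, and 1 of the 20 reached 1 TPM in no tumour-free library. How the authors' counting treated reads shared by near-identical genes, among them C4b and Serpina3n with their relatives, is not given in the sources used here, so their values are uncertain to that extent.

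Mt1 and Mt2, the metallothioneins, are small proteins that bind zinc and copper and are induced by metal, glucocorticoids and interleukin-6. Both were among the abundant transcripts of the tumour-bearing muscles. Mt2 ranged from 64.1 over 250.3 to 437 TPM without and from 581 over 2492 to 4419 TPM with tumour (log2 fold change 3.31 ± 0.47, limma adjusted p = 8.14e-04). Mt1 ranged from 106 over 306 to 415 TPM and from 496 over 2104 to 4222 TPM (2.90 ± 0.44, adjusted p = 0.00124). All 8 tumour-bearing libraries lay above the tumour-free ones in both genes, melanoma plus lisinopril 3 lowest. They belong to the acute phase list as well. Of 21 listed genes of metallothioneins and zinc transport 19 passed the filter, 4 rose and 1 fell, and the list's median was 0.082 above that of all genes.

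The genes are neighbours on chromosome 8, Mt2 at 94172664 to 94173568 and Mt1 at 94179082 to 94180327 (mm10, GENCODE M21). Their RefSeq promoter windows are shown because they carry repeated matches to the core of the metal response element, TGCGCNC or TGCACNC on either strand, which is in capitals. The Mt1 window, chr8:94178839-94179138, held 3 matches and the Mt2 window, chr8:94172368-94172667, held 4, of which 2 were on the other strand. Both are on the plus strand of GRCm38.p6.
Mt1: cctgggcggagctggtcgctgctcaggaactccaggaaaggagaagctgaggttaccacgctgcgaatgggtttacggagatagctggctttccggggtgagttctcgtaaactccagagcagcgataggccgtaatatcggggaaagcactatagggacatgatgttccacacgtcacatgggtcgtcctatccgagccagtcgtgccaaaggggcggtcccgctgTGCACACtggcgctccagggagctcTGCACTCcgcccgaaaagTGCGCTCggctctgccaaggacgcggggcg
Mt2: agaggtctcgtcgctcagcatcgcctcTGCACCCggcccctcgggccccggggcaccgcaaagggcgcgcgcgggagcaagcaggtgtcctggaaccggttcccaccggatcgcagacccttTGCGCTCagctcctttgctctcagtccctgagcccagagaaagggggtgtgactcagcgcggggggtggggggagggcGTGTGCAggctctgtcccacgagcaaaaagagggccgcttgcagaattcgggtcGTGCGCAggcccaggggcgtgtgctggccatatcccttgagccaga
None of these matches, nor those of Socs3 and Cish, overlapped a match of another motif searched. A single match is common, in 35.5% of the promoters of all genes tested, 35.5% of those of genes that rose and 34.6% of those of genes that fell, while 3.24% of all promoters held 3 or more. The E-box CACGTG was in 10.03% of all promoters, 9.84% of those of genes that rose and 8.66% of those of genes that fell. The FoxO element GTAAACA was in 2.53%, 2.64% and 1.73%. These are counts of letters in a window, not of sites in use.

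Genes that glucocorticoids induce in muscle rose, 11 of the 20 that passed the filter of 21 listed, and none fell. Their median was 0.50 above that of all genes, and 6 were higher and 1 lower with median-ratio rescaling. Fkbp5 ranged from 3.43 over 7.02 to 41.4 TPM without and from 37.4 over 72.9 to 218 TPM with tumour, with adjusted p = 0.00126 by limma. Its highest tumour-free library lay above 3 of the 8 tumour-bearing ones. Zbtb16, a transcription factor, rose by 1.74 ± 0.29 and Glul, glutamine synthetase, by 1.49 ± 0.34. Per1, a clock gene that also responds to glucocorticoids, had a log2 fold change of 0.55 ± 0.20 (adjusted p = 0.0579).

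Of 20 muscle ubiquitin ligases, enzymes that mark proteins for the proteasome, 7 rose and 1 fell. Trim63, the ligase MuRF1 of the sarcomere, ranged from 167 over 191 to 341 TPM without and from 228 over 394 to 1974 TPM with tumour (log2 fold change 1.45 ± 0.42, limma adjusted p = 0.0281). Melanoma 2 held its highest value. The call was lost without control 3, control 4, any of lisinopril 1 to 3 or melanoma plus lisinopril 1 (adjusted p up to 0.0598), and it was kept without control 2 and melanoma 2 together (adjusted p = 0.0179). Fbxo32, atrogin-1, ranged from 79.5 over 94.95 to 229.9 TPM and from 66.2 over 202 to 986 TPM, with a log2 fold change of 1.27 ± 0.47 (adjusted p = 0.0616). Fbxo31 rose by 1.48 ± 0.33 and Ubr2, a ligase of the N-degron pathway, by 0.79 ± 0.16. Trim72, which patches the muscle membrane, rose by 0.96 ± 0.15 with all 8 tumour-bearing libraries above the tumour-free ones. Trim55, the ligase MuRF2, fell by 0.48 on the log2 scale (-0.48 ± 0.12, adjusted p = 0.0174). The list's median was 0.031 above that of all genes, and with median-ratio rescaling 5 were higher and 1 was lower.

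FoxO factors are held out of the nucleus by insulin and IGF1 signalling and otherwise drive atrophy genes. Foxo1 ranged from 3.70 over 4.79 to 8.59 TPM without and from 8.68 over 23.5 to 46.2 TPM with tumour (log2 fold change 1.83 ± 0.35, limma adjusted p = 0.00412), and every tumour-bearing library lay above every tumour-free one. Foxo6 went the other way, from a median of 3.66 to 0.814 TPM (-1.31 ± 0.23, adjusted p = 0.00283). Igf1r, the IGF1 receptor, rose by 1.203 ± 0.24 and Pik3r1, the regulatory subunit of PI3-kinase, by 1.51 ± 0.30. Grb14, an adaptor that inhibits the insulin receptor, fell by 1.23 on the log2 scale (-1.23 ± 0.25). Of the 24 genes listed all passed, 8 rose and 3 fell, the third being Irs1, the insulin receptor substrate (-0.66 ± 0.22, adjusted p = 0.0430), whose call was lost without any one of 12 libraries (up to 0.0838, without control 4) and without control 2 and melanoma 2. The list's median was 0.16 above that of all genes.

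Translation genes moved on both sides of mTORC1, the kinase complex that promotes protein synthesis. Eif4ebp1, a repressor of cap-dependent translation that mTORC1 inactivates, ranged from 34.8 over 46.1 to 152 TPM without and from 118 over 236 to 949.8 TPM with tumour (log2 fold change 2.39 ± 0.43, limma adjusted p = 0.00301). Control 2 was the tumour-free library that reached into the tumour-bearing range. Atf4, a factor of amino acid stress, rose by 0.90 ± 0.20 and Mtor itself by 0.75 ± 0.18. Of 21 kept genes of 22 listed, 6 rose and none fell, with a median 0.22 above that of all genes. Of 57 cytoplasmic ribosomal proteins all passed the filter, 28 rose and none fell, and the median was 0.36 above that of all genes. With median-ratio rescaling 15 were higher. Without control 2 and melanoma 2, 52 were higher with the TPM as deposited, where 28.4% of all genes tested were higher. Without both libraries and with median-ratio rescaling 31 were higher. Rps27 ranged from 144 over 171 to 313 TPM without and from 220.3 over 326 to 733 TPM with tumour (0.91 ± 0.23, adjusted p = 0.0169), with 4 of 8 libraries above all tumour-free ones, and Rps25 rose by 0.76 ± 0.20. Reads of ribosomal proteins can be shared with their many pseudogenes.

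Myostatin, activins and their receptors restrain muscle growth through SMAD factors. Mstn, myostatin, ranged from 12.9 over 33.6 to 51.6 TPM without and from 22.6 over 41.8 to 93.7 TPM with tumour, and its log2 fold change of 0.57 ± 0.31 did not pass (limma adjusted p = 0.179). Tgfbr2, a receptor for TGF-beta, rose by 1.03 ± 0.19, and Nog, noggin, a secreted inhibitor of bone morphogenetic proteins, by 1.52 ± 0.35. Noggin ranged from 3.37 over 5.07 to 7.02 TPM and from 3.98 over 15.99 to 46.5 TPM, with 7 of 8 tumour-bearing libraries above all tumour-free ones. Of 31 kept genes of 34 listed 11 rose and 4 fell, with a median 0.22 above that of all genes and counts of 7 and 4 with median-ratio rescaling. Those that fell were Smad6, an inhibitor of the pathway, the ligand Gdf11, Id2, a target of bone morphogenetic proteins, and Inha, an inhibin subunit. Their changes were small, from -0.50 to -0.76 on the log2 scale, and each call was lost without any one of 7 to 9 libraries, with adjusted p up to 0.0717, 0.0905, 0.0696 and 0.0959.

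Autophagy, which delivers cell contents to the lysosome, was raised in 12 of 46 genes and lowered in 1, Atg10, with a median 0.18 above that of all genes. With median-ratio rescaling 9 were higher and 3 lower. Map1lc3b, which coats autophagosomes, ranged from 51.2 over 63.2 to 103 TPM without and from 96.6 over 124 to 266 TPM with tumour (log2 fold change 1.13 ± 0.23, limma adjusted p = 0.00661), overlapping in 1 library. Sqstm1, the cargo receptor p62, rose by 0.95 ± 0.23 and Ulk1, the kinase that starts the process, by 0.93 ± 0.23. Of 34 proteasome subunits, the core of the protease that degrades ubiquitinated proteins, 5 rose and none fell. That is a smaller share than the 16.6% of all genes tested that rose. Yet 31 of the 34 had a log2 fold change above 0. The subunits' median was 0.13 above that of all genes, and 0.0080 above it without control 2 and melanoma 2. The 5 were Psmd4, Adrm1, Psmd2, Psmd1 and Psma3, and with median-ratio rescaling 1 subunit was higher and 1 lower. Calls of Adrm1, Psmd2, Psmd1 and Psma3 were lost with that rescaling, and without any one of 10, 9, 7 and 2 libraries (adjusted p up to 0.0909, 0.0965, 0.0712 and 0.0525). Psmd4, a ubiquitin receptor, ranged from 58.3 over 80.8 to 97.5 TPM and from 88.5 over 119.6 to 357 TPM (0.82 ± 0.24, adjusted p = 0.0304). Its call was lost without control 3, control 4, any of lisinopril 1 to 3, or melanoma plus lisinopril 1 or 4 (up to 0.0680). Of 29 genes of the unfolded protein response 3 rose, Xbp1 (0.97 ± 0.24), a regulator of the endoplasmic reticulum, Atf4 and the chaperone Calr, whose call was lost with median-ratio rescaling and without any one of 10 libraries (up to 0.0845). Ddit3, the stress factor CHOP, fell by 0.57 on the log2 scale (-0.57 ± 0.15, adjusted p = 0.0175). The share of unfolded protein response genes that rose was also below that of all genes tested. Yet 28 of the 29 had a log2 fold change above 0, and their median was 0.25 above that of all genes. Without control 2 and melanoma 2, 12 of them were higher, where 28.4% of all genes tested were higher.

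In the contractile apparatus the calls lay mostly among the structural sarcomere genes. Actc1, the alpha-actin of heart and developing muscle, ranged from 108 over 195 to 741 TPM without and from 11.5 over 15.2 to 147 TPM with tumour (log2 fold change -3.14 ± 0.54, limma adjusted p = 0.00242). The tumour-bearing libraries other than melanoma 3 lay below all tumour-free ones. Des, desmin, the intermediate filament that ties myofibrils together, was higher in every tumour-bearing library, from 2128 over 2636 to 4798 TPM against 1019 over 1294 to 1988 TPM (1.06 ± 0.19, adjusted p = 0.00291). Xirp1 (1.68 ± 0.47) and Flnc (1.47 ± 0.41), which gather at damaged sarcomeres, rose, and both calls were lost without control 3, lisinopril 1 or lisinopril 3 (adjusted p up to 0.0608 and 0.0589). Without control 2 and melanoma 2 both calls were kept with the TPM as deposited and lost with median-ratio rescaling. Ttn, titin, the molecular spring, rose by 0.64 ± 0.12. Of 26 structural sarcomere genes 9 rose and 1 fell, with a median 0.23 above that of all genes, and 4 and 2 with median-ratio rescaling.

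Of 15 fast sarcomere genes only Atp2a1 and Myl1 passed, and of 16 slow ones none did. Atp2a1, the fast calcium pump, had the largest rise in mean TPM of any called gene, from 13047 to 19804. It ranged from 9596 over 12846 to 17140.5 TPM without and from 15157 over 18215 to 30517 TPM with tumour (0.57 ± 0.16, adjusted p = 0.0224). The call was lost with median-ratio rescaling (0.37, adjusted p = 0.1004) and without control 3 or lisinopril 2 (up to 0.0572). Myl1, the fast essential light chain, ranged from 3806 over 5887 to 6887 TPM and from 1462 over 3994 to 5402 TPM (-0.68 ± 0.23, adjusted p = 0.0493). Its call was lost without any one of 11 libraries (adjusted p up to 0.0910, without control 4). The myosin heavy chains did not pass, with log2 fold changes of 0.62 ± 0.22 for the fastest, Myh4 (adjusted p = 0.0562), 0.38 ± 0.14 for Myh1 (adjusted p = 0.0593), -0.57 ± 0.41 for Myh2 (adjusted p = 0.308) and 1.36 ± 0.72 for the slow Myh7 (adjusted p = 0.172). Myh7 was at most 1.47 TPM without tumour, and one tumour-bearing library reached 59.3 TPM against a median of 0.794. Of 29 calcium handling genes 2 were higher and none lower, and none and 6 with median-ratio rescaling. Their median was -0.25 relative to that of all genes, and 18 of the 29 had a log2 fold change below 0.

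Nuclear genes of mitochondrial energy supply were lower in 4 classes, by small factors. Of 31 genes of pyruvate entry and the tricarboxylic acid cycle 12 fell and 1 rose, of 37 nuclear genes of complex I 9 fell and 1 rose, and of 36 kept nuclear genes of complexes III to V 13 fell and 2 rose. Of 33 genes of fatty acid oxidation 10 fell and 2 rose. The medians were -0.38, -0.33, -0.35 and -0.37 relative to that of all genes. With median-ratio rescaling the falls numbered 18, 20, 22 and 17, so the count but not the direction of these lists turned on scaling. None of the 13 proteins of the mitochondrial genome passed, with a median of -0.34 relative to that of all genes.

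Within these classes Mdh1, the cytosolic malate dehydrogenase, ranged from 508 over 656 to 762 TPM without and from 262 over 399 to 549.9 TPM with tumour (log2 fold change -0.67 ± 0.15, limma adjusted p = 0.00920). Ndufs1, the largest subunit of complex I, lay between 199 and 258 TPM without tumour (median 228) and between 95.05 and 192 TPM with it (median 174; -0.54 ± 0.14, adjusted p = 0.0165), without overlap. The groups of Cox7a1, the muscle form of a cytochrome oxidase subunit, were likewise apart (-0.65 ± 0.17), as were those of Acads (-0.72 ± 0.17), which opens the oxidation of short fatty acids, and Eci1 (-0.48 ± 0.12), which serves unsaturated ones. Ndufs8 (-0.45 ± 0.10), Sdhb (-0.41 ± 0.10) and Cyc1 (-0.52 ± 0.14), of complexes I, II and III, were lower with 7 of 8 libraries below all tumour-free ones. Melanoma 2 was the lowest tumour-bearing library for Cyc1, Acads and Eci1. Sirt3, a mitochondrial deacetylase, fell by 0.73 on the log2 scale (-0.73 ± 0.14, adjusted p = 0.00527). Fndc5, the precursor of irisin, fell by 0.86 (-0.86 ± 0.19, adjusted p = 0.00983). Ppargc1a, the coactivator PGC-1 alpha that drives mitochondrial genes, had a log2 fold change of 0.66 ± 0.31 and did not pass (adjusted p = 0.122).

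Mb, Fabp3, Oxct1 and Ckmt2 fell by about 1 or more on the log2 scale. Mb, myoglobin, which stores oxygen, had the largest fall in mean TPM of any called gene. It lay between 6542 and 10832 TPM without tumour (median 7386) and between 1176 and 5539 TPM with it (median 3822; log2 fold change -1.16 ± 0.27, limma adjusted p = 0.0110). Fabp3, which carries fatty acids through the cytosol, lay between 699 and 1363 TPM (median 859) and between 344 and 667 TPM (median 399.9; -1.10 ± 0.16, adjusted p = 9.28e-04). Oxct1, which starts the use of ketone bodies, lay between 179 and 234 TPM (median 210.1) and between 58.6 and 135 TPM (median 106; -1.05 ± 0.14, adjusted p = 6.39e-04). In these 3 genes the groups did not overlap. Ckmt2, the mitochondrial creatine kinase, fell by 1.07 (-1.07 ± 0.29, adjusted p = 0.0227), a call lost without control 3 (0.0521).

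Some genes of glycogen and lipid storage rose. Ppp1r3c, which targets a phosphatase to glycogen and promotes its synthesis, ranged from 143 over 222 to 298 TPM without and from 286 over 612 to 1625 TPM with tumour (log2 fold change 1.57 ± 0.37, limma adjusted p = 0.0119). Plin4, a coat protein of lipid droplets, rose by 1.39 ± 0.25, Pnpla2, the lipase that opens triglyceride breakdown, by 1.02 ± 0.27 and Cd36, the fatty acid transporter, by 0.68 ± 0.17. Lpin1, a phosphatidate phosphatase, lay between 67.0 and 91.3 TPM without tumour (median 82.3) and between 127 and 312 TPM with it (median 194; 1.22 ± 0.16, adjusted p = 5.67e-04), without overlap. Of 24 genes of fatty acid uptake and lipid droplets 7 rose and 1 fell, Fabp3, with a median of -0.019 relative to that of all genes, and 5 were higher and 4 lower with median-ratio rescaling. Of 34 genes of glycolysis and glycogen 8 rose and none fell, while 3 were higher and 2 lower with median-ratio rescaling, under which the sign of the list's median turned from 0.19 to -0.014. Aldoa, aldolase, rose by 0.45 ± 0.13 (adjusted p = 0.0264), and its call was lost with median-ratio rescaling (0.25, adjusted p = 0.243) and without control 3 or lisinopril 2 (up to 0.0612). Pdk4, which closes pyruvate entry, and Ucp3, an uncoupling protein, did not pass, at 0.72 ± 0.37 (adjusted p = 0.161) and -0.48 ± 0.26 (adjusted p = 0.172).

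**Figure D2:**
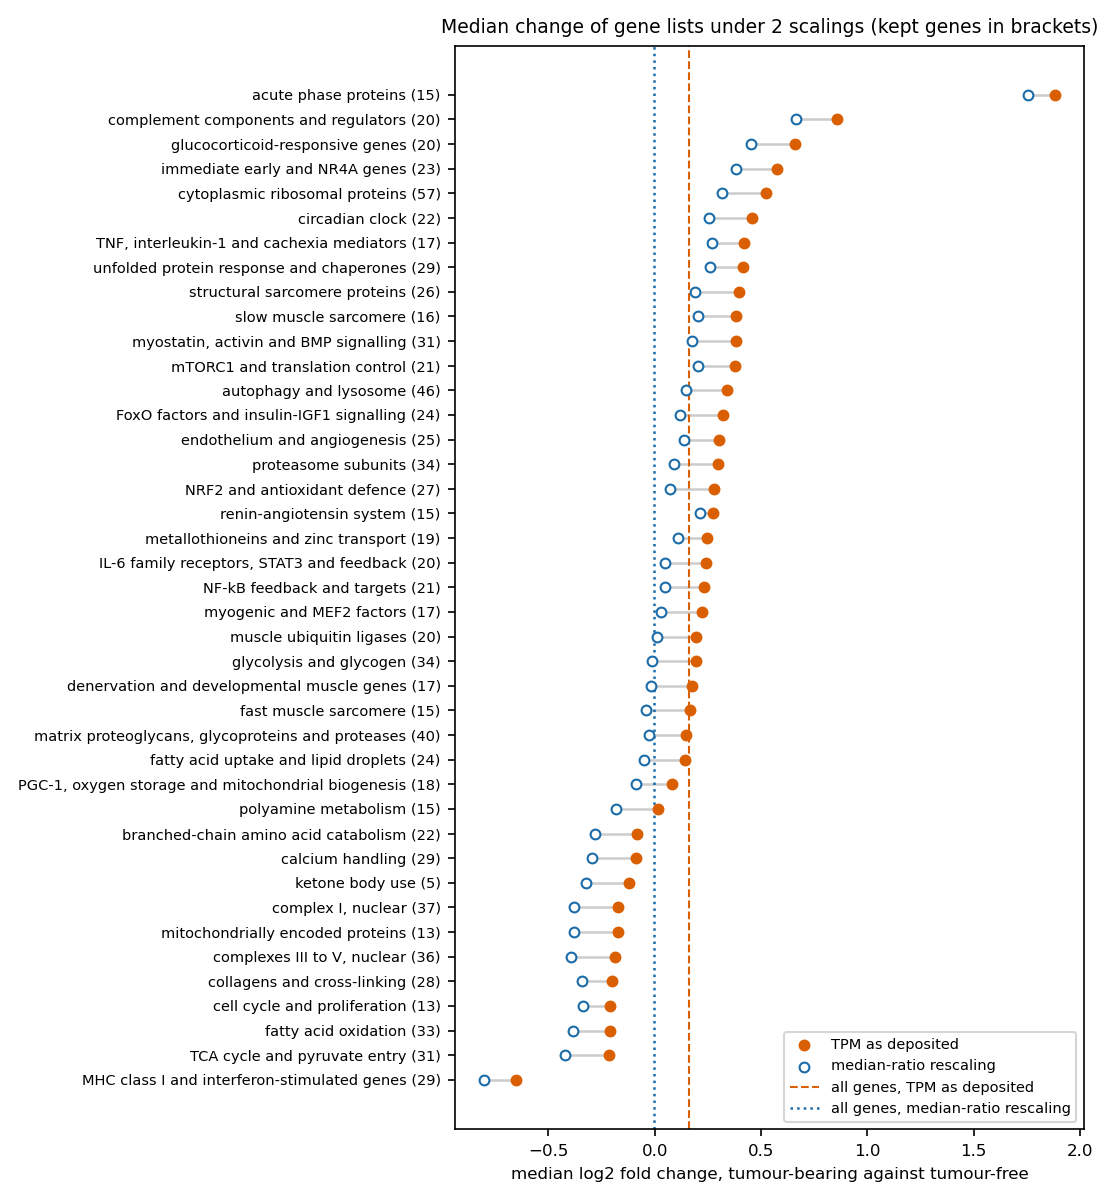
Median log2 fold change (tumour-bearing, n = 8, against tumour-free, n = 7) of the kept genes of each list that is not a cell type marker list, with the TPM as deposited (filled) and after median-ratio rescaling (open); vertical lines mark the medians of all genes, 0.16 and -0.0050. Of the lists drawn, acute phase and complement genes lie highest under both scalings and MHC class I with interferon-stimulated genes lowest, and the energy lists lie below both lines.

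Immunoglobulin and MHC class II transcripts fell. In bulk muscle, fewer cells of a type and less RNA per cell cannot be told apart. Ighm, the heavy chain constant region of IgM, ranged from 28.8 over 72.1 to 167 TPM without and from 1.83 over 4.25 to 20.1 TPM with tumour, which is 11.9-fold lower (log2 fold change -3.58 ± 0.43, limma adjusted p = 2.76e-04). All 8 tumour-bearing libraries lay below all tumour-free ones, and the change was -3.43 without control 2 and melanoma 2. Igkc, the kappa light chain, fell by 2.14 (-2.14 ± 0.69, adjusted p = 0.0419) with control 2 at 80.1 TPM and lisinopril 1 at 61.2 TPM, and the call was lost without control 2 and melanoma 2 (adjusted p = 0.0592) and without any one of 9 libraries (up to 0.0933, without lisinopril 1). Of 17 lymphocyte markers only 4 passed the filter, of which 2 were lower. Without control 2 and melanoma 2, 3 passed it and 1 was lower. The summed level of the 17 was 37.3 to 245 TPM without and 4.59 to 23.5 TPM with tumour, without overlap. That sum includes Ighm and Igkc, so it is not separate from their falls. The T cell receptor subunit Cd3e reached at most 0.439 TPM, in control 2, and 0.249 TPM with tumour. Il2rg, the receptor chain shared by several interleukins, held 30.8 TPM in control 2 and had a log2 fold change of -0.50 ± 0.43 (adjusted p = 0.404).

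MHC class II presents antigen on dendritic cells, macrophages and B cells. H2-Ab1 ranged from 20.9 over 35.0 to 115 TPM without and from 1.22 over 8.57 to 26.6 TPM with tumour (log2 fold change -1.87 ± 0.48, limma adjusted p = 0.0175). Control 2 held the highest and melanoma 2 the lowest value, and without both the change was -1.28 (adjusted p = 0.00833). H2-Aa (-1.81 ± 0.52), H2-Eb1 (-1.75 ± 0.48) and Cd74 (-1.68 ± 0.50), which chaperones the other chains, fell alongside, and without control 2 and melanoma 2 their changes were -1.17, -1.27 and -1.06. Each had 5 or 6 tumour-bearing libraries below all tumour-free ones. The calls of H2-Aa and Cd74 were lost without lisinopril 1, lisinopril 2 or melanoma plus lisinopril 4 (adjusted p up to 0.0585 and 0.0586), that of Cd74 also without control 1, and that of H2-Eb1 without lisinopril 1 (0.0519). The part of other cells in these falls was not tested, and the levels of the cell type markers follow.

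Markers of resident macrophages moved the opposite way from MHC class II. Cd163, the scavenger receptor for haemoglobin bound to haptoglobin, ranged from 0.386 over 0.6251 to 2.47 TPM without and from 1.95 over 6.47 to 10.99 TPM with tumour (log2 fold change 1.92 ± 0.25, limma adjusted p = 5.81e-04). Lyve1, a hyaluronan receptor of vessel-associated macrophages and of lymph vessels, rose by 1.58 ± 0.23 and F13a1, coagulation factor XIII, by 1.96 ± 0.31. Of 18 macrophage markers 16 passed the filter, 8 rose and none fell, also with median-ratio rescaling. One of the 16 reached 1 TPM in no tumour-free library. Their summed level overlapped, at 69.9 to 478 TPM without and 138 to 391 TPM with tumour, the highest in control 2. Of 14 neutrophil markers 10 passed the filter and all 10 rose, 1 of them with no tumour-free library at 1 TPM. S100a8, a calcium-binding protein of neutrophils, ranged from 2.52 over 9.28 to 25.0 TPM and from 9.61 over 43.2 to 162 TPM (2.26 ± 0.45, adjusted p = 0.00522), and Retnlg rose by 2.27 ± 0.42.

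**Figure D3:**
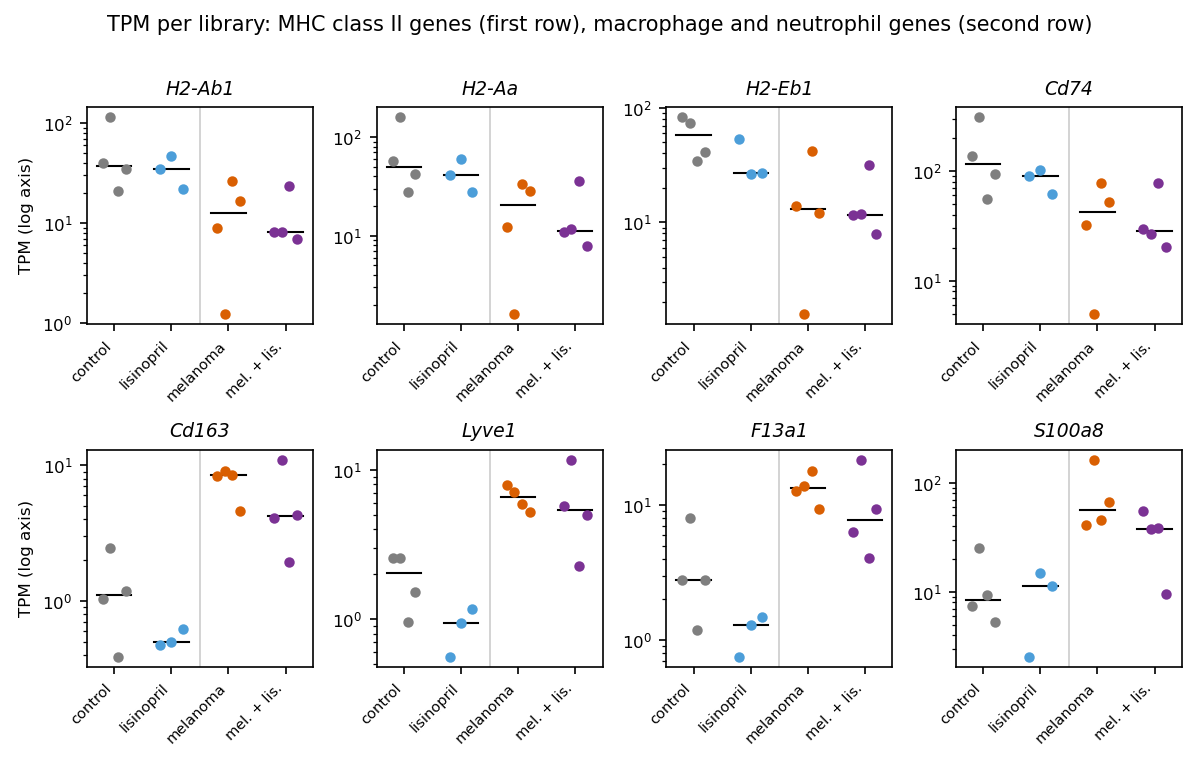
TPM on a log axis in each library, by group, for 4 genes of MHC class II (first row), 3 macrophage genes and a neutrophil gene (second row); points are libraries and bars group medians (n = 4, 3, 4 and 4). The class II genes are highest in a control library and lowest in melanoma 2, while Cd163, Lyve1, F13a1 and S100a8 have 6 or 7 of 8 tumour-bearing libraries above all tumour-free ones.

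Of 31 genes of MHC class I and the interferon response 29 passed the filter, 7 fell and none rose, and 12 were lower with median-ratio rescaling. Iigp1, an interferon-induced GTPase, ranged from 5.07 over 12.9 to 26.9 TPM without and from 1.21 over 4.04 to 10.6 TPM with tumour (log2 fold change -1.31 ± 0.35, limma adjusted p = 0.0213). Gbp3, a guanylate-binding protein, lay below every tumour-free library in all 8 (-1.204 ± 0.32), and its call was lost without lisinopril 1 (adjusted p = 0.0519). The list's median was -0.82 relative to that of all genes, and -0.43 without control 2 and melanoma 2. Its summed level was 449 to 2555 TPM without and 363 to 517 TPM with tumour, the highest in control 2. Of 17 kept genes of TNF, interleukin-1 and cachexia mediators 3 were higher and 1 was lower, and 3 and 2 with median-ratio rescaling. Tnfrsf1a, a receptor for TNF, rose by 1.11 ± 0.18 and Il1r1, one for interleukin-1, by 0.98 ± 0.14, while Il15, a cytokine that muscle makes, fell by 0.75 (-0.75 ± 0.15, adjusted p = 0.00524). Of the other marker lists, 2 of 10 endothelial, 3 of 11 fibro-adipogenic, 2 of 9 smooth muscle, 2 of 7 satellite cell and 2 of 7 nerve genes that passed the filter were higher, and 1, 1, 0, 0 and 1 were lower. None of 8 adipocyte or 6 erythroid genes passed. The erythroid median was -1.38, with all 6 below 0, and it was -0.54 without control 2 and melanoma 2. The summed adipocyte level was 2242 to 3770 TPM without and 375 to 2801 TPM with tumour. Without control 2 and melanoma 2, 3 adipocyte genes were higher and 1 was lower.

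In the matrix, Lox and some proteases rose, while the fibrillar collagens Col1a1 and Col3a1 did not pass. Lox, which cross-links collagen, ranged from 1.07 over 3.09 to 9.69 TPM without and from 10.2 over 14.6 to 28.1 TPM with tumour (log2 fold change 1.84 ± 0.32, limma adjusted p = 0.00283), without overlap. Adamts4, an aggrecan-cutting protease, rose by 1.96 ± 0.47, Mmp3, stromelysin, by 1.78 ± 0.28 and Timp4, a metalloprotease inhibitor, by 1.47 ± 0.23. Col1a1 and Col3a1 had log2 fold changes of -0.99 ± 0.57 (adjusted p = 0.212) and -1.60 ± 0.65 (adjusted p = 0.0853), with wide overlap. Of 28 kept collagen genes Lox rose and Col6a2 and Col15a1 fell, with a median of -0.36 relative to that of all genes. Col15a1, of basement membranes, fell by 0.80 (-0.80 ± 0.22, adjusted p = 0.0227), a call lost without lisinopril 2 (0.0511). The call of Col6a2 was lost without any one of 10 libraries (up to 0.0990, without lisinopril 2). Of 40 genes of proteoglycans, glycoproteins and proteases 10 rose and 2 fell, Sparcl1 and Tnc, whose calls were lost without any one of 12 and 7 libraries (up to 0.0856 and 0.0881). One of the 40 reached 1 TPM in no tumour-free library.

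Genes of the vessel wall split. Ace, the enzyme that lisinopril inhibits, which endothelial cells carry on their surface, ranged from 5.31 over 8.96 to 31.1 TPM without and from 23.2 over 37.7 to 75.5 TPM with tumour (log2 fold change 1.78 ± 0.29, limma adjusted p = 0.00196). The change was 1.62 ± 0.41 without and 1.98 ± 0.44 with the drug. Kdr, the main receptor for VEGF, ranged from 10.7 over 12.7 to 17.9 TPM and from 5.07 over 6.30 to 12.04 TPM (-0.86 ± 0.16, adjusted p = 0.00436), while Flt1, a receptor that captures VEGF, rose by 0.77 ± 0.15. Apln, the peptide apelin, lay between 1.00 and 2.48 TPM without tumour and between 0.107 and 0.962 TPM with it (-1.04 ± 0.16, adjusted p = 0.00126), without overlap. No tumour-bearing library reached 1 TPM of it, so Apln passed the filter only through the tumour-free ones. Of 25 kept endothelial and angiogenic genes 7 rose and 4 fell. Of 15 kept genes of the renin-angiotensin system of 20 listed, Ace, Cma1 and Mme rose and none fell, with 1 higher and 2 lower under median-ratio rescaling. The calls of Cma1 and Mme were lost with that rescaling, and without any one of 12 and 13 libraries (up to 0.115 and 0.109).

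Clock genes changed in both directions. Dbp, an output of the clock in which transcription follows the time of day, ranged from 24.5 over 70.9 to 96.4 TPM without and from 5.28 over 12.9 to 60.2 TPM with tumour (log2 fold change -1.95 ± 0.51, limma adjusted p = 0.0197). Nfil3, which represses the sites that Dbp activates, rose by 1.91 ± 0.41, and Rora (1.11 ± 0.24), a receptor that activates Arntl, rose with all 8 tumour-bearing libraries above the tumour-free ones. Nr1d1 and Arntl did not pass, at -0.55 ± 0.33 (adjusted p = 0.226) and 1.13 ± 0.52 (adjusted p = 0.122). Of 22 kept clock genes 7 rose and 1 fell. The time of day of collection is not given in the sources used here, so it cannot be told apart from the groups. Of 23 immediate early genes 6 rose and none fell, among them Nr4a3 (1.49 ± 0.37), a nuclear receptor induced by contraction, and Ier3 (1.40 ± 0.29).

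Cell cycle, iron and antioxidant genes gave some of the clearest single changes. Ccnd1, cyclin D1, lay between 3.57 and 10.4 TPM without tumour (median 3.98) and between 0.163 and 1.41 TPM with it (median 0.942; log2 fold change -1.59 ± 0.20, limma adjusted p = 4.62e-04), without overlap. Cdkn1a, the inhibitor p21, rose by 1.41 ± 0.38 (adjusted p = 0.0216), a call lost without lisinopril 1 (0.0542). Tfrc, the transferrin receptor that takes up iron, ranged from 28.5 over 112 to 134 TPM without and from 5.31 over 14.4 to 29.2 TPM with tumour (-2.46 ± 0.42, adjusted p = 0.00242). Its lowest tumour-free library, control 2, fell within the tumour-bearing range, below melanoma 3, and without control 2 and melanoma 2 the change was -2.50. Hmox1, which frees iron from haem, rose by 1.66 ± 0.42. Gpx3, a secreted glutathione peroxidase, ranged from 60.5 over 125 to 234 TPM and from 267 over 466 to 1143 TPM (1.92 ± 0.35, adjusted p = 0.00324), without overlap. Of 27 kept genes of antioxidant defence 7 rose and 2 fell, and 5 were higher and 5 lower with median-ratio rescaling. Of 13 kept cell cycle genes 1 rose and 1 fell.

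Ostn, Nrep, Cyfip2 and Lrtm1 were also among the largest falls. Ostn, osteocrin, a peptide that binds the clearance receptor for natriuretic peptides, ranged from 0.620 over 9.61 to 42.4 TPM without and from 0.300 over 0.959 to 6.49 TPM with tumour (log2 fold change -2.45 ± 0.55, limma adjusted p = 0.0103). Its lowest tumour-free library was control 2 and its highest tumour-bearing one melanoma plus lisinopril 3, so only 4 of 8 lay below all tumour-free libraries. Nrep, a small neuronal and regeneration-related protein, fell by 2.52 (-2.52 ± 0.47, adjusted p = 0.00375). Cyfip2, a subunit of the WAVE complex that controls actin, fell by 2.27 (-2.27 ± 0.42, adjusted p = 0.00377). Lrtm1, a membrane protein of muscle, ranged from 24.8 over 34.8 to 52.5 TPM and from 2.27 over 10.5 to 22.3 TPM (-1.84 ± 0.31, adjusted p = 0.00242), without overlap.

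The tumour effect could be read separately in mice without and with lisinopril, from libraries that the drug arms do not share. Over the 11923 genes the log2 fold changes of both arms had a Pearson r of 0.765 and a Spearman rho of 0.754, across genes, which are not independent replicates, and 79.7% of genes had the same sign. Of the 266 genes at 1 or more without the drug, 256 were above 0 with it (median 1.35), and of the 186 at -1 or less, 166 were below 0 (median -0.75). Of the 511 genes at 1 or more with the drug 489 were above 0 without it (median 0.90), and of the 101 at -1 or less 93 were below 0 (median -1.14). The median of all genes was 0.10 without and 0.23 with the drug. No gene passed the test of the difference between the arms (limma interaction, 0 of 11923, 0%), and 151 had an unadjusted p under 0.05. That the test found none does not show that the arms respond alike, since each holds 3 or 4 libraries a group.

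The smallest p of the interaction was that of Zdhhc23, a palmitoyltransferase. Its log2 fold change was 0.36 ± 0.27 without and 2.28 ± 0.29 with the drug, a difference of 1.92 ± 0.40 (limma, adjusted p = 1.00). The control libraries held 1.15 to 4.00 TPM and the lisinopril libraries 0.456 to 0.904 TPM. The melanoma libraries held 2.05 to 3.90 TPM and those with tumour and drug 4.81 to 10.4 TPM, above all others. Plin5, a lipid droplet protein of oxidative tissue, had -0.37 ± 0.18 and 0.58 ± 0.19, and Pde4d, which degrades cyclic AMP, 0.33 ± 0.21 and 1.45 ± 0.23. The pseudogene Rpl23a-ps3 had 0.84 ± 0.16 and -0.06 ± 0.17 at levels of at most 1.42 TPM. Plin5 had a pooled log2 fold change of 0.07 ± 0.17 (adjusted p = 0.784), whose sign turned with median-ratio rescaling (-0.12).

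**Figure D4:**
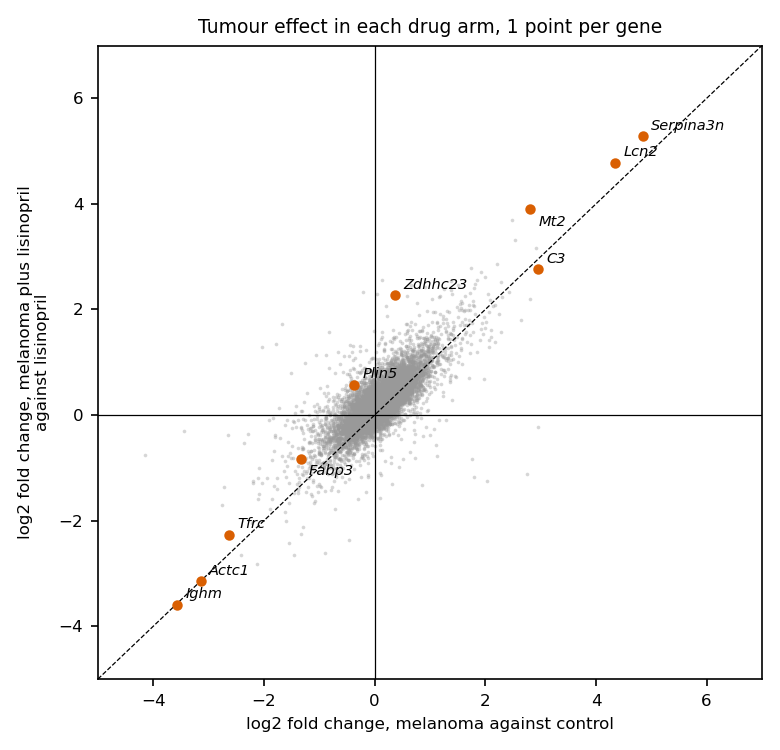
Log2 fold change with tumour in mice without the drug (x axis, 4 against 4 libraries) and with lisinopril (y axis, 4 against 3), 1 grey point per tested gene, with 10 named genes in orange and the line of equal change dashed. Most of the strongly changed genes lie in the same quadrant (r = 0.765), and Zdhhc23 and Plin5 lie off the line.

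The tumour-bearing mice differed among themselves. The SD of log2(TPM + 1) within arms was larger in the tumour-bearing than in the tumour-free libraries for 59.0% of all genes, 68.6% of the genes that rose and 57.7% of those that fell. Without control 2 and melanoma 2 these shares were 61.9%, 74.7% and 59.5%. The 1 added to the TPM narrows the SD where values are low, as in genes that rose from a low tumour-free level. How much this adds to the share of the genes that rose was not tested. Serpina3n spanned 15.3 TPM in melanoma plus lisinopril 3 to 887 TPM in melanoma 2. Of the 12 genes with the largest rises melanoma 2 was the highest tumour-bearing library in 8 and melanoma plus lisinopril 3 the lowest in 11. Of the 12 genes with the largest falls melanoma 2 was the lowest in 9 and melanoma plus lisinopril 3 the highest in 7. Tumour mass or weight loss per mouse is not used here, so whether these orders follow the disease was not tested.

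**Figure D5:**
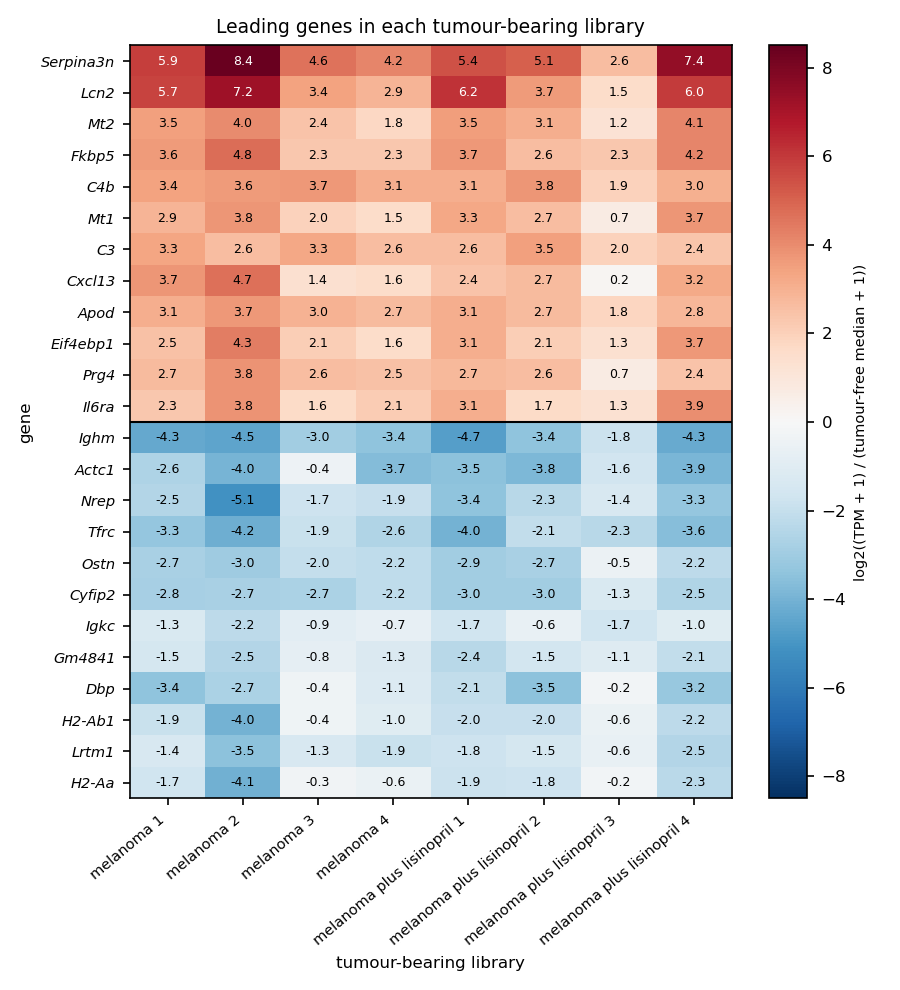
Log2 ratio of (TPM + 1) in each tumour-bearing library to the tumour-free median (+ 1), for the 12 genes with the largest rises (top) and the 12 with the largest falls (bottom) among called genes whose higher group averaged 5 TPM or more. Serpina3n spans 2.61 in melanoma plus lisinopril 3 to 8.38 in melanoma 2, and the column of melanoma plus lisinopril 3 is the palest in most rows.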

How the data were processed

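Gene expression of 15 tibialis anterior libraries was read from 1 table of TPM values as the authors deposited it. Per the labels' protocols the libraries were stranded poly(A) RNA libraries, and per the submitters' processing notes the build was mm10. For the aligner, the counting method and the annotation: not given in the sources used here. TPM keep no sequencing depth, so precision rests on the spread between libraries.

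Groups came from the labels. log2(TPM + 1) was fitted with limma 3.58.1 (R 4.3.3) on a tumour and a drug term over all libraries, with a trended prior (12 residual and 3.75 prior degrees of freedom), for genes at 1 TPM or more in at least 3 libraries. p-values are two-sided and Benjamini-Hochberg adjusted over all genes tested, with a threshold of 0.05. The interaction and the change in each arm came from a fit with 4 group means. Labels call the libraries biological replicates, without naming animals, so p-values measure the spread between these libraries. Tables and figures used Python 3.11.15, pandas 2.3.3, numpy 2.4.6, scipy 1.17.1 and matplotlib 3.10.9. The fit was tested on simulated data. The highest correlation between libraries was 0.990 and no pair was identical.

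Genes were named by a rule: per direction the 12 largest changes (with the higher group averaging 5 TPM or more), the 6 largest differences of mean TPM and the 6 smallest adjusted p, then 4 per list, 4 by interaction p and a panel of 29. It gave 182 genes, of which part are named. Outside it, chosen after their values were seen, are Il6st, Cish, Lbp, Hp, Saa1, C7, C1ra, C1s1, C8g, Ubr2, Trim55, Igf1r, Irs1, Foxo6, Inha, Smad6, Gdf11, Id2, Atg10, Psma3, Cd36, H2-Eb1, Cd74, Cd79a, Apln, Flt1, Ccnd1, Sparcl1, Tnc, Cma1, Mme and Gpnmb. The comparison and the 53 lists, of which 12 are cell type markers, were chosen with earlier results of these data known. Promoters are from RefSeq (GRCm38.p6) and gene positions from GENCODE M21.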

Additional observations from a re-analysis of the deposited data

Results flagged for a closer look

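In groups of 7 tumour-free or 8 tumour-bearing libraries, a value was picked out where the highest or lowest library's gap to its neighbour was large for the range of the group (Dixon's criterion at 95%). In a single group of normally distributed values chance picks about 1 in 20. These groups pool both drug arms, reuse the same libraries and hold genes named partly for their change, so that rate is no exact baseline. Here 37 of 324 groups were picked, 18 of them for control 2 and 8 for melanoma 2.

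Control 2 was the highest tumour-free library for Eif4ebp1 (152 TPM), Il6ra (9.47 TPM), Osmr (4.13 TPM), Hp (13.9 TPM), Ubr2 (40.7 TPM), Igf1r (6.53 TPM), Map1lc3b (103 TPM), Rps27 (313 TPM) and Cd36 (373 TPM). It was also highest for the immune genes Gbp3 (21.8 TPM), Cd79a (20.0 TPM), Il2rg (30.8 TPM) and Cd3e (0.439 TPM), and for Flt1 (19.3 TPM) and Hmox1 (14.7 TPM). It was lowest for Ndufs8 (241 TPM), Dbp (24.5 TPM) and Nrep (28.2 TPM).

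Melanoma 2 was the highest tumour-bearing library for Xbp1 (235 TPM) and Calr (278 TPM) and the lowest for Myl1 (1462 TPM), Mb (1176 TPM), Cyc1 (321 TPM), Acads (22.97 TPM), Eci1 (77.4 TPM) and Ckmt2 (323 TPM). Melanoma plus lisinopril 3 was the lowest for C4b (6.79 TPM), Prg4 (3.45 TPM) and Tmem176a (5.65 TPM) and the highest for Ostn (6.49 TPM) and Cyfip2 (4.44 TPM). Melanoma plus lisinopril 1 was the highest for Sdhb (466 TPM). Of the tumour-free libraries, lisinopril 3 was lowest for Myh2 (103 TPM), lisinopril 1 for Ppargc1a (10.4 TPM) and Pde4d (13.1 TPM), while control 3 was highest for Eci1 (204 TPM) and control 1 for Ccnd1 (10.4 TPM).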

How the results depend on the processing

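The number of genes called, 2481, rose to 4655 with sample quality weights, to 3979 without control 2 and melanoma 2 and to 3859 without both and with median-ratio rescaling, a setting chosen after seeing the data. Leaving out 1 library gave 1184 (without lisinopril 1) to 4288 (without control 2) calls. The count also moved by over 1.5 times without control 3 (1259), control 4 (1478), lisinopril 2 (1237), lisinopril 3 (1570) or melanoma plus lisinopril 4 (1624). Fewer libraries alone lower such a count, and the cause of the higher counts was not tested. The share of calls that were higher was 80.01%, against 46.9% after median-ratio rescaling, 50.2% after quantile normalization and 58.5% when the mitochondrial genome was left out. In all 28 alternatives, 680 genes were called in the direction of the main result. The interaction gave 0 calls (limma) in each alternative in which it was fitted, with 78 to 481 genes at an unadjusted p under 0.05. It was not fitted with 4 group means, with no drug term, or without both libraries and with median-ratio rescaling.

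A replicate block gave 2518 calls, of which 2191 were shared. Same-numbered libraries correlated at -0.153 to 0.359 after removal of group means, 9 of 21 pairs above 0.1, so the numbers were not taken as a pairing.

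The difference in the mitochondrial share of TPM was -6.55 percentage points (exact permutation p = 0.0216) without melanoma 4, and -6.55 to -3.93 over all libraries left out in turn. Of 140 called genes that the text names, 113 were still called with no filter on low values and 113 to 139 with 1 library left out. Signs turned in 2 uncalled genes. Il2rg was at 0.050 with quality weights and 0.042 without control 2 and melanoma 2. Plin5 was at -0.12 after median-ratio rescaling, at -0.13 after quantile normalization, at -0.055 when the mitochondrial genome was left out, at -0.099 without both libraries and median-ratio rescaled, and -0.046 to 0.14 with 1 library left out. Depth is unknown, so what it limits cannot be given.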
